A study of Mus musculus with 6 samples.

Results

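Chromatin accessibility was examined at the 70 protein-coding mouse genes of cytochrome P450 families 1 to 4, out of 21911 protein-coding genes in the annotation. The genes were chosen by symbol (Cyp, a digit from 1 to 4, a letter, then digits and at most 1 further letter), leaving out Cyp2r1, Cyp4b1 and the Cyp4a subfamily. Open chromatin had been profiled by ATAC-seq, in which a transposase cuts DNA it can reach and tags it for sequencing, in 6 libraries. Each library was made from 3 proximal tubules dissected by hand from kidneys of wild-type male C57BL/6 mice aged 7 weeks, and the sample names give the S1 segment, the first stretch of the tubule after the glomerulus. The mice had been operated 24 h earlier: 3 libraries came from sham-operated animals (Sham) and 3 from animals that had lost 1 kidney to surgery (unilateral nephrectomy, UNx). Whether the libraries stem from separate mice is not stated in the labels, so the p-values below measure the spread between these libraries, which may be technical.

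Cytochromes P450 are haem enzymes of the endoplasmic reticulum that insert an oxygen atom into fatty acids, steroids, vitamins and drugs, with electrons passed on by the P450 reductase Por. Families 1 to 3 are best known for drug and foreign-compound metabolism in the liver, while the proximal tubule of mice is rich in a smaller set, among them Cyp2e1 and the arachidonic acid epoxygenase Cyp2j5. The Cyp4f enzymes hydroxylate the far end of fatty acid chains, and mouse Cyp4f14 is a leukotriene B4 hydroxylase. Most members lie in tandem clusters of recently duplicated genes, where short reads cannot always be assigned to 1 copy.

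The sequences below show what the promoters of these genes look like and which differences between close relatives the assay had to resolve. They are the RefSeq promoter windows on GRCm38.p6, read 5′ to 3′ along the gene, starting 250 bases before the RefSeq start and ending before the first annotated exon base. Capitals mark matches to 3 strings searched on both strands: CAAAGNNCA, bound by hepatocyte nuclear factor 4 (HNF4), TTNNGCAA of the C/EBP factors, and the GC box CCGCCC. Cyp4f14, Cyp4f16 and Cyp4f13 belong to 1 cluster on chromosome 17, where Cyp4f14 gave the only called member promoter. Cyp2d26 and Cyp3a59 had a promoter peak and an HNF4 string, while Cyp2d10 and Cyp2c70 had the string and no peak. Cyp2a5 and Cyp2a4 are near-identical copies, one with a promoter peak and one without.
Cyp4f14 (chr17:32917343-32917579, minus strand): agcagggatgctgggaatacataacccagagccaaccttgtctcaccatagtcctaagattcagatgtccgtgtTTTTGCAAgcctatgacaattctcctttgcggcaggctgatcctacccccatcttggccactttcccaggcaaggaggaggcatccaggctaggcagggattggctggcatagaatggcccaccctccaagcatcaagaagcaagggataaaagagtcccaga
Cyp4f16 (chr17:32536307-32536556, plus strand): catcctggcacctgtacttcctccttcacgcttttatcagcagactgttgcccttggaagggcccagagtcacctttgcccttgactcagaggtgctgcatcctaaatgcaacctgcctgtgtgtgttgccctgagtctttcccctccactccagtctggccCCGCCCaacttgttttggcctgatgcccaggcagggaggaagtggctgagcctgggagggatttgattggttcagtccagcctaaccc
Cyp4f13 (chr17:32947403-32947611, minus strand): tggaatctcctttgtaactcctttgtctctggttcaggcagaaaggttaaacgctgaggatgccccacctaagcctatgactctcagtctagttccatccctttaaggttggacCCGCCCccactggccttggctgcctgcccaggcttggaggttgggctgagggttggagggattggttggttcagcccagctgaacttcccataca
Cyp2d26 (chr15:82794295-82794495, minus strand): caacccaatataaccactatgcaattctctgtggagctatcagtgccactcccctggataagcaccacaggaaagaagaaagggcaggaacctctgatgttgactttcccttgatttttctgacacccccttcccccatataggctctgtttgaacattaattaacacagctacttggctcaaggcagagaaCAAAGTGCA
Cyp3a59 (chr5:146079008-146079257, plus strand): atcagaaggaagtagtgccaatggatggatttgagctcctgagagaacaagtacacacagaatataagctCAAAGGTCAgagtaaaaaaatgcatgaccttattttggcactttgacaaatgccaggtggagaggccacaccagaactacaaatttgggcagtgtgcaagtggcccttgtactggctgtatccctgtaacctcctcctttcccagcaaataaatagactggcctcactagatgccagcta
Cyp2d10 (chr15:82407196-82407444, minus strand): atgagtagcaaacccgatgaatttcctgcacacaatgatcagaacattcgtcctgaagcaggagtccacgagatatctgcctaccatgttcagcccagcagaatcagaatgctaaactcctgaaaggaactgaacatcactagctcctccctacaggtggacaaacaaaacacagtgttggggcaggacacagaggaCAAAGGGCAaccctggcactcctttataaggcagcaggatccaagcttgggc
Cyp2c70 (chr19:40187287-40187536, minus strand): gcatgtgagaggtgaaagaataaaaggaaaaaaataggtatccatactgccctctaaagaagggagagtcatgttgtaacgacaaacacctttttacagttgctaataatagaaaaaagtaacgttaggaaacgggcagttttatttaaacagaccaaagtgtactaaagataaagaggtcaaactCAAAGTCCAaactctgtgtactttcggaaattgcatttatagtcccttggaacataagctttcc
Cyp2a5 (chr7:26835089-26835304, plus strand): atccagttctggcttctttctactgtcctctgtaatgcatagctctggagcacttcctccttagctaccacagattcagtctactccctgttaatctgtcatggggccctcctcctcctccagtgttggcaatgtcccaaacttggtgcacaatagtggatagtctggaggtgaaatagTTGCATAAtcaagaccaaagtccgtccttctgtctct
Cyp2a4 (chr7:26306942-26307168, plus strand): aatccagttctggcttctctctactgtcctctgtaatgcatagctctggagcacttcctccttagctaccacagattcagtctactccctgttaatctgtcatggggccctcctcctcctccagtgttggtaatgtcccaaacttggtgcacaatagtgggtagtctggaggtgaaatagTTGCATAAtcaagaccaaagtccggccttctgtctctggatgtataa

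Cyp4f16 and Cyp4f13 both hold a GC box and Cyp4f14 holds a C/EBP string, while the HNF4 strings of Cyp2d26, Cyp2d10 and Cyp2c70 sit at like distances, 58, 53 and 64 bases before their starts. The printed windows of Cyp4f14, Cyp4f16, Cyp4f13, Cyp2d26, Cyp3a59 and Cyp2a5 lay wholly inside a peak region. In the whole 250-base windows Cyp2a4 and Cyp2a5 were identical at 245 of 249 compared bases (98.4%).

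Each library had its own list of peaks, of between 77355 and 100999 intervals, and the lists hold no read counts, so depth is unknown. The 77355 strongest peaks of each list by −log10 q were used. Each peak got a percentile rank in its own list, near 100 for the strongest and 0 where a region was not among them. The weakest peak used had a −log10 q of 1.30 in Sham library 2 and 7.83 in UNx library 3, the extremes. Medians of the full lists ran from 12.1 to 26.5 in the same libraries. Equal ranks, and an absent peak, therefore stand for unlike q values between libraries. Peaks overlapping between lists were merged into 99359 regions, and limma compared UNx with Sham at the 74781 regions present in 3 or more lists, with Benjamini-Hochberg adjustment over all of them. Of the tested regions, 589 (0.788%) passed an adjusted p of 0.05, 325 higher (0.435%) and 264 lower (0.353%) in UNx. Both the number and the balance depended on the setting: 151 were higher and 29 lower with a −log10 q of at least 5, 17 and 5 with all deposited peaks, 19 and 57 without UNx library 2, 1 and 13 without UNx library 3, and 0 and 4 without UNx library 1. The genes listed as S1 markers were Slc5a2, Slc34a1, Lrp2, Cubn, Hnf4a and Slc22a6. A promoter peak in at least 3 lists was found for 6 of 6. Mean ranks were 86.5 to 86.9 in the Sham libraries and 83.8 to 86.4 in the UNx libraries, with Slc22a6 lower at 56.5 to 74.7. Whether this list tells S1 from the rest of the proximal tubule was not tested. Markers of podocytes, endothelium, stroma and immune cells had such a peak for 2 of 7 genes (mean ranks 4.63 to 7.12 in Sham and 0 to 6.71 in UNx), and hepatocyte markers for 0 of 3 (0 to 4.77 and 0 to 2.05). Markers of the loop, distal tubule and collecting duct had one for 4 of 6 (44.7 to 48.4 in Sham and 39.5 to 43.8 in UNx), and S3 markers for 1 of 3 (19.8 to 26.4 in Sham and 13.6 to 19.5 in UNx). These means count a gene without a peak as 0 and hide single genes. Scnn1g, from the collecting duct list, ranked 85.4 to 95.7 in all libraries, as high as the S1 markers. Slc12a1 (means 56.9 in Sham and 30.2 in UNx), Slc22a7 of S3 (66.6 and 50.1) and Scnn1g (93.0 and 86.8) were lower in UNx without overlap. So were Lrp2 and Cubn of the S1 list, while Umod and Calb1 overlapped, and none of these passed the threshold. A lower rank cannot be told apart from fewer cells with the region open.

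Most of the P450 promoters had no peak in these tubules. A promoter peak, with its summit within 1 kb of an annotated start, was found in at least 3 lists for 25 of the 70 genes (35.7%), against 13280 of all protein-coding genes (60.6%). Of the 70, 22 had one in all 6 lists and 42 in none, and 37 stayed without one when all deposited peaks were counted. The Sham libraries held promoter peaks at 24, 26 and 25 of the genes, and the UNx libraries at 24, 22 and 25, so the operation groups overlapped.

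**Figure D1:**
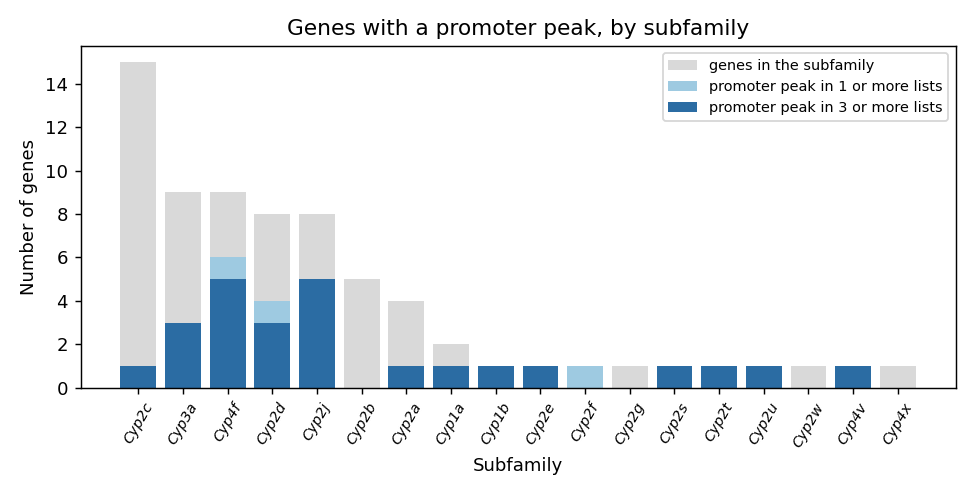
Number of genes per P450 subfamily (grey bars, x axis: subfamily, y axis: genes) with a promoter peak in at least 1 list (light blue) and in at least 3 of 6 lists (dark blue), drawn from 0. Cyp2j and Cyp4f each had 5 genes with a peak in at least 3 lists, while Cyp2c had 1 of 15 and Cyp2b 0 of 5.

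The subfamilies divided unevenly. Cyp2j (epoxygenases, chromosome 4) had a promoter peak in all 6 lists at 5 of 8 genes, and Cyp4f at 5 of 9. In Cyp2c, the largest subfamily with 15 genes on chromosome 19, this held for Cyp2c38 alone, and in Cyp2b, whose members respond to the drug-sensing receptor CAR in liver, for 0 of 5. Cyp3a, the family of the main liver drug oxidases, had 3 of 9 genes with a peak in at least 3 lists, but only Cyp3a13 in all 6. Cyp2d had 3 of 8, and Cyp2a 1 of 4.

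Several subfamilies of a single gene had a promoter peak in every list: Cyp1b1, Cyp2e1, Cyp2s1, Cyp2t4, Cyp2u1 and Cyp4v3. Of the classical dioxin-induced pair, Cyp1a1 had a peak in 6 lists and Cyp1a2 in none. Cyp2f2, the lung naphthalene oxidase, had a promoter peak among those used in UNx library 3 alone, at rank 20.5, and in 3 of the full lists. Cyp2g1, Cyp2w1 and Cyp4x1 had none. Cyp3a11, the major liver drug oxidase of mice, had no peak among those used, and a weak one in 2 of the full lists.

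**Figure D2:**
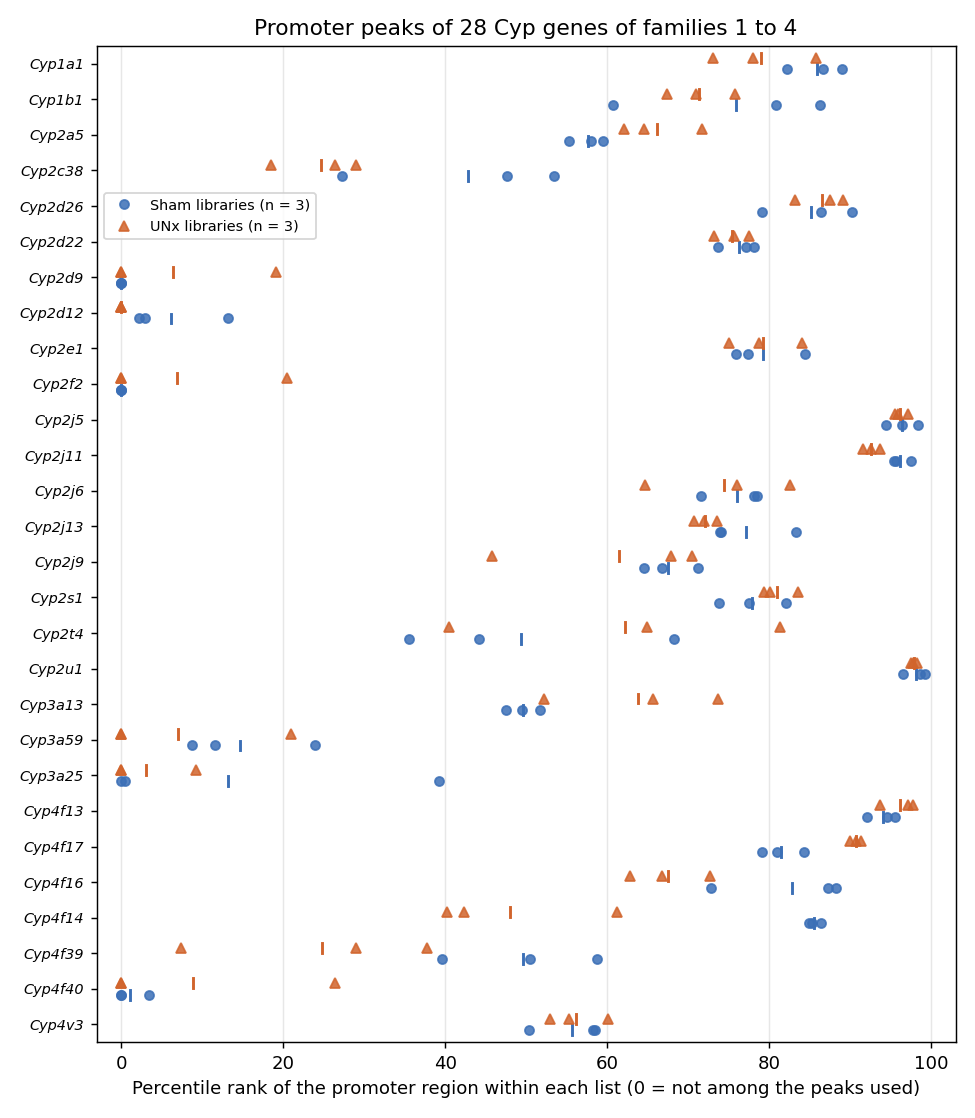
Percentile rank of the promoter region in each library (x axis, 0 = not among the peaks used) for the 28 P450 genes with a promoter peak in at least 1 list, with Sham as blue circles, UNx as orange triangles and group means as vertical ticks. Cyp2u1, Cyp2j5, Cyp2j11 and Cyp4f13 lie above 90 in all libraries, and Cyp4f14 is the gene whose groups lie farthest apart.

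By −log10 q, the promoter of highest mean rank was that of Cyp2u1, a fatty acid hydroxylase (chr3:131302487-131303616). Its ranks were 98.7, 96.5 and 99.3 in Sham and 97.5, 98.2 and 97.7 in UNx, so all 6 libraries placed it among their top peaks. Cyp2j5 (chr4:96663625-96664606) followed with 98.4, 94.4 and 96.4 in Sham and 97.1, 95.9 and 95.5 in UNx. Its groups overlapped, and the difference was −0.20 percentile points (SE 1.51; limma adjusted p = 0.964). Ranked by fold enrichment in place of −log10 q, the mean rank of Cyp2j5 over 6 libraries was 81.0 in place of 96.3, and Cyp4f13 (97.9) stood just above Cyp2u1 (97.5).

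The neighbours of Cyp2j5 had lower mean ranks. Cyp2j11 (chr4:96348192-96349271) had ranks of 95.4, 95.7 and 97.5 in Sham and 92.5, 91.5 and 93.7 in UNx, with every UNx library below every Sham library, and the difference missed the threshold (−3.58, SE 1.62; limma adjusted p = 0.245). Cyp2j13 likewise had 83.3, 74.1 and 73.9 against 73.5, 71.9 and 70.7. Cyp2j6 (71.6 to 78.5 in Sham and 64.6 to 82.5 in UNx) and Cyp2j9 (64.5 to 71.2 and 45.8 to 70.5) overlapped between the groups. Cyp2j7, Cyp2j8 and Cyp2j12 had no promoter peak in any list.

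Cyp2e1, the ethanol-oxidising P450, had a promoter peak just upstream of its start (chr7:140763337-140763974) with ranks of 84.4, 77.4 and 75.9 in Sham and 78.8, 75.1 and 84.0 in UNx. The groups covered the same range, with a difference of 0.03 (SE 4.09; limma adjusted p = 0.998). Cyp2d26 (chr15:82793893-82794926) had 79.1, 90.2 and 86.3 in Sham and 87.5, 83.2 and 89.1 in UNx, again with overlapping groups. The neighbouring Cyp2d22 ranked between 73.1 and 78.2 in all 6 libraries.

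The other Cyp2d promoters were at the edge of detection. Cyp2d12 was found at ranks 2.2, 13.2 and 3.0 in Sham and in no UNx list, and a region seen in only 3 lists of 1 group is bound to separate. Cyp2d9, a male-enriched steroid hydroxylase of liver, was listed only in UNx library 1, at rank 19.2. Counting all deposited peaks, Cyp2d9 was found in 3 lists and Cyp2d12 and Cyp2d40 in 5 each.

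Cyp1a1, the main target of the aryl hydrocarbon receptor, had a peak (chr9:57696206-57697277) with its summit 950 bases upstream of the nearer of its 2 annotated starts. That point falls in an intron of the transcript from the other start. Its ranks were 89.0, 82.2 and 86.7 in Sham and 73.0, 78.0 and 85.8 in UNx. The UNx values reached down further and overlapped with Sham (−7.01, SE 3.70; limma adjusted p = 0.320). Cyp1b1, which also oxidises aromatic compounds and estradiol, had 80.8, 60.7 and 86.2 against 70.9, 67.3 and 75.8, with UNx inside the Sham range. Cyp2s1 (73.9 to 82.1 in Sham and 79.4 to 83.5 in UNx) and Cyp4v3, a fatty acid hydroxylase (50.3 to 58.5 and 53.0 to 60.1), overlapped as well.

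Cyp2a5, the mouse coumarin hydroxylase (chr7:26835054-26835542), had ranks of 55.3, 59.5 and 58.0 in Sham and 62.0, 64.5 and 71.8 in UNx. All UNx libraries lay above all Sham libraries, but the difference of 8.54 (SE 6.25) did not pass (limma adjusted p = 0.488). Much of the sequence here is not unique: of the 31-base words in the 2 kb around each start, 33.7% occurred once in the genome for Cyp2a5 and for Cyp2a4. A promoter peak was listed at Cyp2a5 in 6 lists and at Cyp2a4 in 0, but how reads with several matches were placed is not given. Which of the copies was open is therefore uncertain.

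Cyp3a13 (chr5:137921993-137922683) had ranks of 47.6, 51.7 and 49.5 in Sham and 52.2, 73.6 and 65.6 in UNx. The groups were apart by a narrow margin, with a difference of 14.2 (SE 7.37) that missed the threshold (limma adjusted p = 0.312). Cyp3a59 had 23.9, 11.6 and 8.7 in Sham and 0, 0 and 21.02 in UNx. Cyp3a25 had 0, 39.2 and 0.4 in Sham and 0, 0 and 9.2 in UNx, so both were weak and irregular within each group. Cyp2c38, the open Cyp2c gene, had 47.7, 27.3 and 53.5 against 26.4, 18.5 and 29.0, with 1 Sham library among the UNx values (−18.2, SE 10.6; limma adjusted p = 0.368). Cyp2t4 ranged from 35.5 to 68.3 in Sham and from 40.5 to 81.3 in UNx.

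Of the 25 promoters tested, 1 passed the threshold, that of Cyp4f14, which fell in UNx. Over all tested protein-coding promoters 0.413% passed (0.173% higher and 0.239% lower). The groups did not overlap at 3 promoters higher in UNx (Cyp2a5, Cyp3a13 and Cyp4f17) and 6 lower (Cyp2d12, Cyp2j11, Cyp2j13, Cyp4f14, Cyp4f16 and Cyp4f39), against 20.2% of all tested protein-coding promoters (9.46% higher and 10.7% lower). An unadjusted p under 0.05 was reached by 5 of the 25, against 13.5%. The median difference of the 25 was −1.67 percentile points, against −0.18 over the coding promoters. Of the 25, 9 (36%) were higher and 16 (64%) lower, against 47.3% and 52.7% of the coding promoters. The median rank of the 25 was 74.6, against 85.7.

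The peak of Cyp4f14 (chr17:32916853-32917744) covers the promoter window printed above, with its strongest summit in an exon 108 bases from an annotated start. Its ranks were 86.4, 85.3 and 84.9 in the Sham libraries and 40.3, 42.3 and 61.3 in the UNx libraries, so that 3 tightly grouped Sham values stood above 3 lower and more scattered UNx values. The mean fell from 85.5 ± 0.77 (SD, n = 3) to 47.9 ± 11.6 (SD, n = 3), a difference of −37.6 (SE 6.28; limma adjusted p = 0.0207). The authors' fold enrichment at the summit was 15.4, 12.2 and 16.5 in Sham and 7.54, 9.24 and 14.5 in UNx, and the peak was present in every list.

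The direction at Cyp4f14 was the same under all 17 alternatives. Leaving out a library could not turn it, as the groups did not overlap, and several alternatives reused the same ranks. The call was kept under 5 of the 17, among them the 2.5 kb window, which reused the same fit. It was lost when 1 of 5 libraries was left out in turn, Sham 1, Sham 2, Sham 3, UNx 1 or UNx 2 (limma adjusted p from 0.0548 to 0.113), and when ranks came from fold enrichment, where the difference was −21.9 (limma adjusted p = 0.204). UNx library 3 lay nearest to Sham, and without it the difference was −44.2 (limma adjusted p = 0.0272).

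At the other Cyp4f genes of chromosome 17 the differences had both signs, and none passed the threshold. Cyp4f17 (chr17:32505855-32507243) ranked 84.3, 79.1 and 81.0 in Sham and 90.7, 91.4 and 89.96 in UNx, with all UNx libraries above all Sham libraries (9.20, SE 2.65; limma adjusted p = 0.0905). Cyp4f16 (chr17:32536176-32536960) ranked 72.8, 87.3 and 88.3 against 66.8, 72.8 and 62.8, where Sham library 1 and UNx library 2 met to within rounding (−15.3, SE 5.09; limma adjusted p = 0.126). Cyp4f39, needed for skin barrier lipids (chr17:32468310-32469011), ranked 50.5, 39.6 and 58.7 against 37.8, 7.4 and 29.0, just apart (−24.9, SE 10.6; limma adjusted p = 0.217).

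Cyp4f13 (chr17:32947004-32947934), the next gene to Cyp4f14 among the open ones, held the highest ranks of the subfamily, 92.1, 95.5 and 94.5 in Sham and 97.8, 97.1 and 93.7 in UNx, and its groups overlapped (2.14, SE 1.67; limma adjusted p = 0.521). Cyp4f40 was among the peaks used in Sham library 2 at 3.4 and in UNx library 1 at 26.4, and had a weak peak in all 6 full lists. Cyp4f15, Cyp4f37 and, on chromosome 8, Cyp4f18 had no promoter peak.

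**Figure D3:**
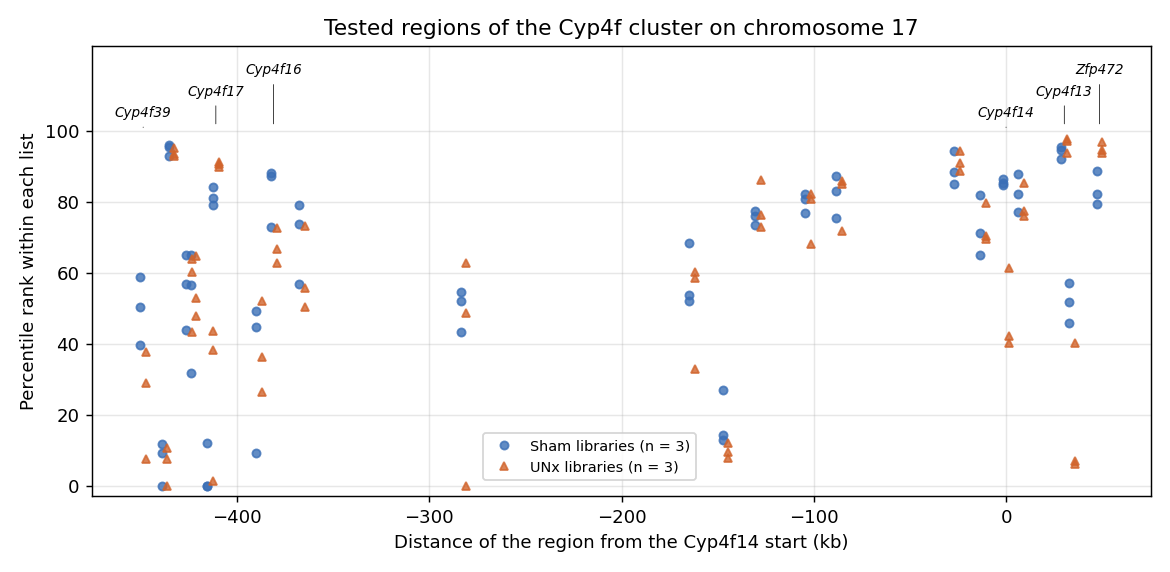
Percentile rank in each library (y axis) of the 23 tested regions in and next to the Cyp4f cluster of chromosome 17, by distance from the Cyp4f14 start in kb (x axis), with Sham as blue circles and UNx as orange triangles, drawn slightly side by side. At Cyp4f14 the Sham libraries lie between 84.9 and 86.4 and the UNx libraries between 40.3 and 61.3, while the groups overlap at 16 of the 23 regions.

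The cluster of 8 Cyp4f genes spans 494.68 kb and includes zinc finger genes. Of its 23 tested regions, flanks included, 2 separated with UNx higher and 5 with UNx lower, where 23.7% of all tested regions separated (12% higher and 11.7% lower). Of the 23, 2 were called, where 0.788% of all tested regions were: Cyp4f14 and the promoter of Zfp472, no P450 gene. Cyp4f14 was already known as called, and the Zfp472 promoter lies in the flank, beyond Cyp4f13 at the cluster end. The count therefore cannot be weighed against that share. Zfp472 had 88.6, 79.3 and 82.1 in Sham and 96.8, 93.8 and 94.5 in UNx (11.7, SE 2.52; limma adjusted p = 0.0409). Its call was not followed under the alternatives. A region between Cyp4f13 and Zfp472 (chr17:32951515-32951760) had 45.9, 57.2 and 51.7 against 7.1, 6.2 and 40.1 and did not pass (limma adjusted p = 0.123). Within Cyp4f14 itself, an exonic region 11681 bases from the start had mean ranks of 72.9 in Sham and 73.3 in UNx, and its groups overlapped.

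Gene bodies held 65 regions in 37 of the 70 genes, counted where the strongest summit lay inside the gene and more than 1 kb from all its starts. Of these, 46 were tested, 27 were found in all 6 lists, and 0 passed the threshold, where 0.77% of gene-body regions of all protein-coding genes did (0.504% higher and 0.266% lower). The count at an unadjusted p under 0.05 was 8, against 19% of those regions. The groups did not overlap at 4 regions higher and 7 lower in UNx, against 24% (13.3% higher and 10.7% lower). The median rank was 38.0 and the median difference −2.65, against 41.8 and 0.749 over gene-body regions of all protein-coding genes. Neither a promoter peak nor a gene-body region was found for 23 genes, among them Cyp1a2, Cyp3a11, Cyp3a16, Cyp4f15, and 7 Cyp2c genes.

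Some genes without a promoter peak were open inside the gene. Cyp2w1, a P450 known from the fetal gut and colon tumours, had an intronic region 2795 bases from its start (chr5:139355107-139355713) at ranks 87.7, 84.3 and 93.2 in Sham and 70.2, 79.8 and 66.2 in UNx. All UNx libraries lay below all Sham libraries (−16.3, SE 4.19; limma adjusted p = 0.0653), and the region passed when ranks were turned into normal scores (limma adjusted p = 0.0431). Cyp2c23, named in the kidney for making epoxides of arachidonic acid, had 6 gene-body regions and no promoter peak. The 2 highest had mean ranks of 70.8 in Sham and 66.9 in UNx, 13662 bases from the start, and of 62.8 and 72.2 at 7497 bases. At the latter the ranks were 60.6, 67.4 and 60.4 in Sham and 68.1, 76.2 and 72.3 in UNx, with every UNx library higher and no call (limma adjusted p = 0.378). A Cyp2c23 region at 8818 bases had 9.1, 0 and 0 in Sham and 23.6, 6.3 and 25.4 in UNx, with overlap (limma adjusted p = 0.353).

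**Figure D4:**
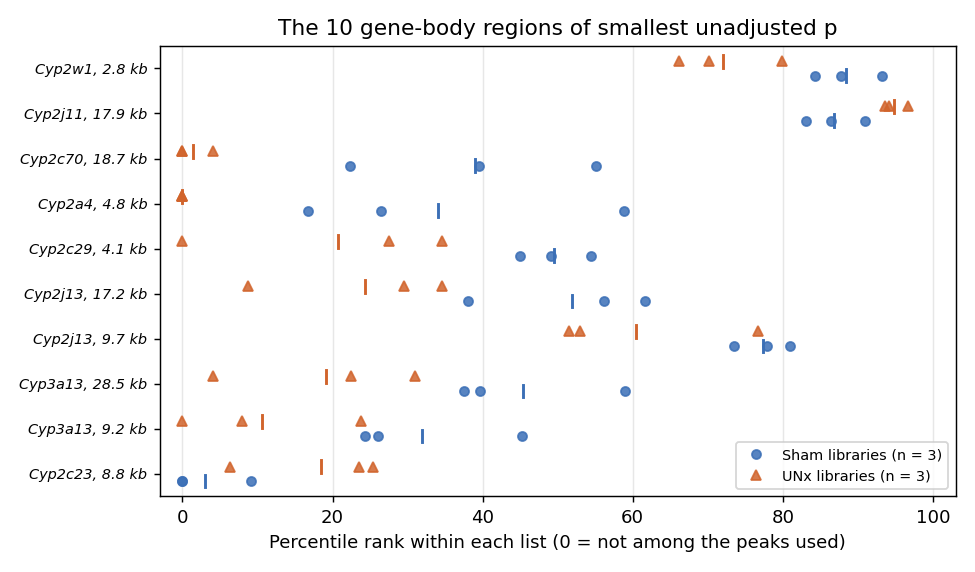
Percentile rank in each library (x axis, 0 = not among the peaks used) of the 10 P450 gene-body regions of smallest unadjusted p, labelled by gene and distance from the nearest own start in kb, with Sham as blue circles, UNx as orange triangles and group means as vertical ticks. In the Cyp2j11 region UNx lies above Sham, in the Cyp2a4 region all UNx libraries are at 0, and none of the 10 passed the threshold.

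The gene body of Cyp2j11 held an intronic region 17859 bases from the start (chr4:96330255-96331683) with ranks of 83.0, 91.0 and 86.4 in Sham and 96.7, 94.1 and 93.7 in UNx. Here UNx was higher in all libraries (8.03, SE 2.26; limma adjusted p = 0.0850), the opposite order to the promoter of the same gene. In Cyp2j13, regions at 17166 bases (56.1, 38.1 and 61.6 in Sham; 8.8, 29.6 and 34.5 in UNx) and at 9686 bases (77.9, 73.4 and 80.9; 51.5, 52.9 and 76.7) had lower UNx means. The groups were apart at the first and overlapped at the second, and neither passed (limma adjusted p = 0.170 and 0.171).

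In the Cyp2c cluster, an intronic region of Cyp2c70, a bile acid hydroxylase of rodents (chr19:40168432-40168727), had ranks of 39.6, 22.4 and 55.1 in Sham and 0.01, 4.0 and 0 in UNx. The UNx libraries ranked it near the bottom, although it was in all 6 lists when all deposited peaks were counted, and the difference of −37.7 (SE 11.0) did not pass (limma adjusted p = 0.0931). An intronic region of Cyp2c29 (chr19:39282604-39283328) had 54.5, 49.1 and 45.0 against 0, 34.6 and 27.5 (limma adjusted p = 0.168). Both genes had no promoter peak.

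The intronic region of Cyp2a4 (chr7:26311549-26312450) had ranks of 26.5, 16.7 and 58.8 in Sham and was in 0 of the UNx lists, also when all deposited peaks were counted. A region found in only the 3 Sham lists passed the filter through that group, and its difference of −34.0 (SE 11.2) did not pass the test (limma adjusted p = 0.123). In Cyp3a13, an exonic region at 28464 bases (37.5, 58.9 and 39.7 in Sham; 22.4, 30.98 and 4.1 in UNx) and an intronic one at 9232 bases (26.1, 24.4 and 45.3; 0, 8.0 and 23.7) were lower in all UNx libraries. This was the reverse of the order at the Cyp3a13 promoter, and neither region passed (limma adjusted p = 0.213 and 0.315). The gene-body region with the highest mean rank over the 6 libraries was an exonic one in Cyp4f39, 14956 bases from the start, at 94.8 in Sham and 93.9 in UNx. In UNx alone the Cyp2j11 region at 17859 bases ranked higher than the Cyp4f39 region, with a mean of 94.8.

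The P450 promoters were poor in CpG. RefSeq windows matched 60 of the 70 genes, and 58 of these had a CpG observed-to-expected ratio under 0.6 (96.7%), against 52.3% of 16522 protein-coding genes. The exceptions were Cyp2s1 and Cyp4v3, both open in all lists. Among CpG-poor promoters a peak in at least 3 lists was found for 19 of 58 members (32.8%) and for 37.6% of all genes of that class, against 90.7% of CpG-rich ones. The members' share thus lay nearer to that of all genes within the CpG-poor class than over all promoters, where it was 35.7% against 60.6%. The last 2 shares cover all 70 members and all 21911 protein-coding genes, and the class shares only genes with a RefSeq window.

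The HNF4 string CAAAGNNCA stood in 23 of 60 member windows (38.3%), against 4.99% of all windows and 6.51% of CpG-poor ones. Its holders were 2 Cyp2a, 8 Cyp2c, 5 Cyp2d and 8 Cyp3a genes, which share ancestry and are not independent. A promoter peak in at least 3 lists was found at 3 of the 23 (13.0%: Cyp2d26, Cyp3a25 and Cyp3a59) and at 18 of the 37 members without the string (48.6%). Over all CpG-poor genes the shares were 42.0% with the string and 37.3% without. The promoter of Hnf4a itself ranked between 85.3 and 89.3 in all 6 libraries.

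The C/EBP string TTNNGCAA stood in 14 of 60 windows (23.3%), against 8.83% of all windows, and all 5 Cyp2b genes had it. Among CpG-poor windows the shares were 24.1% and 11.9%. The GC box was in 11 (18.3%), against 45.4%, and in 15.5% against 22.4% of CpG-poor windows. The STAT string TTCNNNGAA was in 3 (5%), against 6.62%, and the aryl hydrocarbon receptor string TNGCGTG in 1 (1.67%), against 5.04%. Among CpG-poor windows these were 5.17% against 8.19% and 1.72% against 2.39%. The HNF1 palindrome, the direct repeat 4 of the receptors CAR and PXR, and the palindrome of the corticosteroid and androgen receptors were in 0 member windows, and in 0.0666%, 0.0182% and 0.00605% of all windows.

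**Figure D5:**
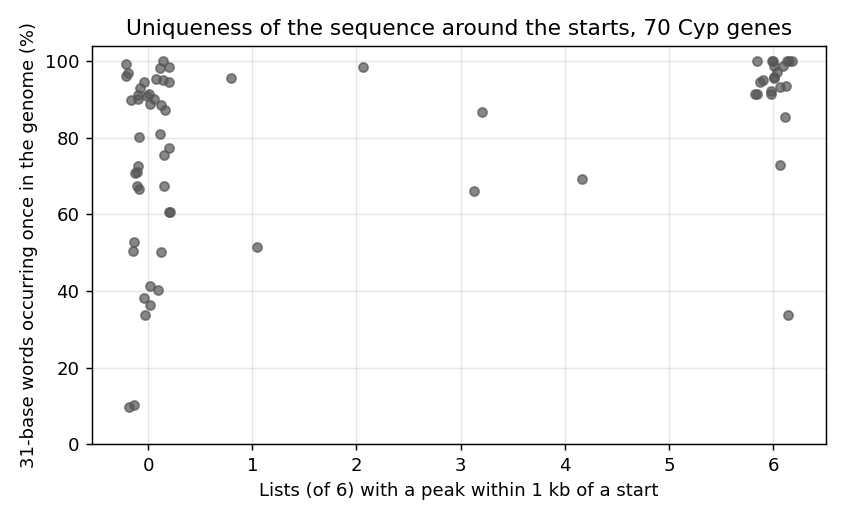
Share of 31-base words in the 2 kb around the annotated starts that occur once in the genome (y axis, percent) against the number of lists with a promoter peak (x axis, 0 to 6, points spread sideways), one point per P450 gene. Genes with no peak range from 9.75% to 100%, and Cyp2a5 is the point at 33.7% among those with a peak in 6 lists.

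Sequence shared between copies limits what an absent peak shows. Around the starts of the 25 genes with a peak in at least 3 lists, a median of 94.5% of 31-base words occurred once in the genome, and 4 genes were under 75%. Around the 42 genes with no peak the median was 80.7%, and 18 were under 75%, with Cyp3a41b (9.75%) and Cyp3a41a (10.2%) lowest. Of the 42, 17 were at 90% or more, among them Cyp1a2 (94.6%), Cyp2b10 (94.6%), Cyp3a11 (95.3%), Cyp2j12 (96.9%), Cyp4f15 (99.4%) and Cyp4f18 (100%). How the authors treated reads with several matches is not given in the sources used here, and its part in the missing peaks was not tested. Cyp4f14 stood at 95.0%, Cyp4f17 at 98.7%, and Cyp4f16 at 72.9%.

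Among 26 genes that serve or regulate these enzymes, 25 had a promoter region, against 63.2% of all protein-coding genes. Of these, 1 passed the threshold, against 0.413% of all tested protein-coding promoters. The genes were picked with earlier results of these data known, so their counts cannot be weighed against these shares. Por and the electron donor Cyb5a ranked at 98.4 or more in all libraries, as did Arnt, the partner of the aryl hydrocarbon receptor. Bcl6, a repressor that shapes male and female P450 patterns in mouse liver (chr16:23988493-23989068), ranked 78.4, 78.6 and 70.4 in Sham and 38.7, 50.4 and 52.4 in UNx. It fell in UNx, with no overlap (−28.6, SE 6.56; limma adjusted p = 0.0482). The call was lost under 15 of 17 alternatives, each left-out library among them (limma adjusted p up to 0.225). The same region is also the promoter region of Gm37419.

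Ahrr, the repressor of the aryl hydrocarbon receptor, had 31.6, 52.0 and 1.4 in Sham and 0, 10.6 and 0 in UNx, with overlap and no call (limma adjusted p = 0.262). The drug-sensing receptor genes had higher UNx means. Nr1i2 (PXR) ranked 74.3, 57.5 and 64.6 against 73.0, 79.8 and 86.2 (14.2, SE 5.49; limma adjusted p = 0.178). Nr1i3 (CAR) ranked 15.7, 0 and 0 against 8.2, 18.9 and 40.9 (limma adjusted p = 0.372). Both overlapped between the groups and neither passed.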

How the data were processed

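ATAC-seq peaks were taken from 1 narrowPeak list per library (3 Sham, 3 UNx), on mm10 (GRCm38), so replicates were not pooled. The submitters' processing notes name cutadapt 3.4, Bowtie, SAMtools, Picard and MACS2 2.2.7.1, with no settings. In the deposited lists the authors gave each summit a display score, a fold enrichment (a ratio to the local background), and a −log10 p and −log10 q. These values were used only to rank or filter peaks within a list. Intervals on the autosomes and sex chromosomes were used, each represented by its best summit. Depth is unknown and no interval that needs it is given.

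Ranks were compared with limma 3.58.1 in R 4.3.3 (two-sided moderated test, eBayes with mean-variance trend and robust fitting, adjusted p threshold 0.05). This step was also run on simulated normal values. Unlike the ranks, these had no bounds and no zeros for absent peaks, so that run cannot vouch for the calls. As promoter region a gene got the highest-ranking region that had a summit within 1 kb of a start in GENCODE M21 basic. Strings were counted with Python 3.11.15 in the 250 bases before RefSeq starts (GRCm38.p6). The members and gene lists were chosen with earlier results of these data known. Named genes were those called, the highest of each subfamily, the 5 largest rises and falls, the 10 gene-body regions of smallest p, and preset genes, with the top changes among partners. Other members and regions were named after their values were seen. Alternatives were all deposited peaks, a −log10 q of at least 5, fold enrichment ranks, a 50% overlap, no filter on lists, plain variance, normal scores, GC-corrected ranks, a replicate block, a 2.5 kb window and leaving out each library.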

Additional observations from a re-analysis of the deposited data

How the results depend on the processing

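None of the 15 differences in rank recomputed under the alternatives changed sign. At all 15 the groups did not overlap, so leaving out a library could not reverse them, and several alternatives reused the same ranks. The balance of all called regions turned from 325 higher and 264 lower to 247 and 270 with plain variance, and to 19 and 57 without UNx library 2. Among member promoters 1 was called, and also 1 with a −log10 q of at least 5, normal scores, a 2.5 kb window or the replicate block. It was 0 with all deposited peaks, fold enrichment ranks, a 50% overlap, no filter on lists, plain variance, GC-corrected ranks or the block with GC-corrected ranks, and 0 to 1 with a library left out. Partner promoters went from 1 to 0 in those settings, in the replicate block and with a −log10 q of at least 5, and gave 0 to 0 with any library left out. Gene-body calls went from 0 to 1 with normal scores (Cyp2w1). Over all regions, calls went from 589 to 22 with all deposited peaks, 180 with a −log10 q of at least 5, 3 with fold enrichment, 97 with a 50% overlap, 2 with no filter, 1583 with normal scores, 2 with GC correction, 55 in the replicate block, 0 in the block with GC correction, and 4 to 76 with a library left out. The cause was not tested. Members with a promoter peak numbered 23 to 29 wherever recounted. Deviations of same-numbered libraries correlated at 0.00819, −0.1 and −0.0496, and those of different-numbered ones at −0.0778 to 0.105. With so few libraries these values cannot decide whether replicate numbers pair the libraries.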
